A study of Mus musculus with 39 samples.

Results

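The genes Foxa1, Foxa2, Foxa3 and Hnf4a, 4 of the 21911 protein-coding genes annotated in GENCODE vM21, were examined for 4 histone marks in naive extra-embryonic endoderm (nEnd). For each gene, every peak of all 36 deposited peak lists that touched the gene body or the 50 kb on either side of it was collected, on GRCm38. This gave 189 of the 432096 listed peaks. The cultures came from an OCT4-mCherry reporter line of mouse embryonic stem cells and received no treatment. FACS separated them into cells positive for OCT4-mCherry alone (Oct4+), for both OCT4-mCherry and PDGFRA-APC (DP), and for PDGFRA alone (Pdgfra+). CUT&Tag, in which an antibody brings a transposase to a histone mark so that the DNA beside it is cut and tagged, was performed for H3K4me1, H3K27ac, H3K27me3 and H3K9me3 with 3 replicates of each population. All 3 populations shared this line and this culture, and no other genotype or agent was compared. The labels name 3 IgG samples, titled for DP, Oct4 and Pdgfra. The paper called peaks against an IgG control, so the lists depend on it. The labels do not say whether the replicates of a population shared a control. The IgG samples themselves were not analysed here.

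The forkhead factors FOXA1, FOXA2 and FOXA3 are called pioneer factors because they can bind their sites in closed chromatin, and they are known for their part in the formation and function of endoderm and liver. HNF4A is a nuclear receptor of the visceral endoderm, liver and gut, where it is needed for the expression of many secreted and transport proteins. Of the marks, H3K27ac lies at active promoters and enhancers, H3K4me1 at enhancers whether active or not, H3K27me3 is deposited by Polycomb repressive complex 2, and H3K9me3 marks repressed heterochromatin.

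The members lie on 3 chromosomes. Foxa1 (ENSMUSG00000035451) is at chr12:57540628-57546916 on the minus strand, Foxa2 (ENSMUSG00000037025) at chr2:148042877-148046969 on the minus strand, Foxa3 (ENSMUSG00000040891) at chr7:19013284-19023538 on the minus strand and Hnf4a (ENSMUSG00000017950) at chr2:163506808-163572910 on the plus strand. The windows were 106, 104, 110 and 166 kb long in that order. No other protein-coding gene reached into the Foxa2 window, whereas 2 reached into that of Foxa1, 6 into that of Foxa3 and 3 into that of Hnf4a. Distances are given in kb from the annotated start of each gene, negative before the start and positive in the direction of transcription.

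The sequence just before each gene start is shown because the promoter peaks described further on are counted over it. Each run is the 250 bases before the GENCODE start, on the strand of the gene, read from the RefSeq assembly of GRCm38. RefSeq places the start of Foxa1 0.805 kb further into the gene, outside this sequence and the promoter as counted.
Foxa1 upstream, chr12:57546917-57547166, minus strand: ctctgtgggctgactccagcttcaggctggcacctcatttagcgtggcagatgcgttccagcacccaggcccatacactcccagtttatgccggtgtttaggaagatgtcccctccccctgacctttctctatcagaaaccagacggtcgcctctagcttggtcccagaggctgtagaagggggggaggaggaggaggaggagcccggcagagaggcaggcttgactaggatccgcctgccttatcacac
Foxa2 upstream, chr2:148046970-148047219, minus strand: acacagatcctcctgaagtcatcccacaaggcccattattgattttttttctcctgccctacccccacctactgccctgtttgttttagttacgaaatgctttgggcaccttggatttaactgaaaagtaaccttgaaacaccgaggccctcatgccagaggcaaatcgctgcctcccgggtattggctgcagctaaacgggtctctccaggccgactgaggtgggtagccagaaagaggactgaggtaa
Foxa3 upstream, chr7:19023539-19023788, minus strand: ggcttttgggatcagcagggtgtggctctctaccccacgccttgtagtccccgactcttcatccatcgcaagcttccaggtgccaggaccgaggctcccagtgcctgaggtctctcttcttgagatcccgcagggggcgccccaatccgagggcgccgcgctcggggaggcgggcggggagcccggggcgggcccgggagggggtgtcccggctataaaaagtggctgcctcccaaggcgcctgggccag
Hnf4a upstream, chr2:163506558-163506807, plus strand: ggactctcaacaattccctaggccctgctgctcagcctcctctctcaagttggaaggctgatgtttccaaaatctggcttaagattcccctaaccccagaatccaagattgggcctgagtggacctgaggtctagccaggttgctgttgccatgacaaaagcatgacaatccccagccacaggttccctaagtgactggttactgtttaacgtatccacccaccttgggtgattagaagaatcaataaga
The 4 sequences differed in base composition. G and C made up 68.8% of the Foxa3 sequence, which held 18 CG dinucleotides, and 59.2% of that of Foxa1, which held 7. They made up 50.8% of the Foxa2 sequence with 6 CG dinucleotides and 49.2% of the Hnf4a sequence with 1, beside a median of 52.4% over 32851 RefSeq starts. Both strands were searched for AGATAA as the motif of GATA factors, TGTTTAC as that of FOXA, AAAGTCC of HNF4, ATGCAAA of OCT4 and CATTGT of SOX factors, and none of them was found in the 4 sequences. Among the RefSeq starts, 250 bases held them in 9.99, 3.17, 3.58, 4.12 and 10.7% of cases, in that order.

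The next sequences are 200 bases around the maximum of the peak with the highest percentile of total signal in the distal regions that the results turn on, on the strand of the gene they are named for, with motif matches in capitals. They show which short motifs lie at the regions described further on. The window at -43 kb from the start of Hnf4a was added after its values were seen.
Foxa2 H3K27ac maximum, chr2:148005170-148005369, minus strand: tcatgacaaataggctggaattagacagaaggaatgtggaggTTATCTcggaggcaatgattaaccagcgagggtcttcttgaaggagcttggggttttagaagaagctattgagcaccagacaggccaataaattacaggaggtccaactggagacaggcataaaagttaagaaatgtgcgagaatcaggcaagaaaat
Foxa2 H3K4me1 maximum, chr2:148005301-148005500, minus strand: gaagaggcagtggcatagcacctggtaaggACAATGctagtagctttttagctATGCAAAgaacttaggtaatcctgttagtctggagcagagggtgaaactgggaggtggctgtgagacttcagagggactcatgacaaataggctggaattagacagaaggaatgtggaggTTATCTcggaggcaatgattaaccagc
Foxa3 H3K27ac maximum, chr7:19007467-19007666, minus strand: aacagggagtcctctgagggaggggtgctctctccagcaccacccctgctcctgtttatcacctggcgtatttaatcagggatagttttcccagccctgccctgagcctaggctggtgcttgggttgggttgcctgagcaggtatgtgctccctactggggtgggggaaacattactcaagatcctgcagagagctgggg
Hnf4a H3K4me1 maximum, chr2:163481691-163481890, plus strand: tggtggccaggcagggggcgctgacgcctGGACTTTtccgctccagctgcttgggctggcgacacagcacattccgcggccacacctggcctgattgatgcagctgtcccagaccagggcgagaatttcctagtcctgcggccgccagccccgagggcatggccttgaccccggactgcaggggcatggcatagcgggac
Hnf4a H3K27ac maximum at -43 kb, chr2:163463735-163463934, plus strand: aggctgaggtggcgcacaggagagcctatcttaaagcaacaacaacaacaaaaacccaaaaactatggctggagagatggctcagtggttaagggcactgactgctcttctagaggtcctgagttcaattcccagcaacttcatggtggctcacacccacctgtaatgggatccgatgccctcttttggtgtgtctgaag
The first pair of sequences overlap and come from 1 element downstream of Foxa2, which held 1 match of the GATA motif, read as TTATCT, in the bases that both windows share. The H3K4me1 window lies at the maximum of Pdgfra+ replicate 3. Maxima of all 5 H3K4me1 peaks of that region lay between 41.6 and 45.4 kb. This window also held ACAATG, the reverse complement of the SOX motif, and ATGCAAA of OCT4. These matches do not overlap each other. The element before Hnf4a held GGACTTT, the reverse complement of the HNF4 motif. The Foxa3 element and the -43 kb window held none, and 85.5% of the latter was masked as repeat. Over all H3K27ac peak maxima, 200 bases held the GATA motif in 8.35% and the HNF4 motif in 2.52% of 152408 windows. Over all H3K4me1 maxima the shares were 15.9% for GATA, 13.6% for SOX, 3.59% for OCT4 and 3.04% for HNF4 of 66214 windows.

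Peak lists are the only readout, and their length differed between libraries. They held from 1074 to 65131 peaks and covered from 0.0716 to 7.03% of the genome. For H3K27ac the shortest and longest lists had 8574 and 65131 peaks among Oct4+ libraries, 3079 and 12244 among DP and 4792 and 7128 among Pdgfra+. The lists carry no read numbers, so the depth of a library is unknown and an absent peak can be a peak not detected. Of the sort markers, Pdgfra followed the labels, whereas Pou5f1 set Oct4+ apart but did not separate DP from Pdgfra+. An H3K27ac peak lay over the promoter of Pou5f1, the gene of OCT4, in 3 of 3 Oct4+, 1 of 3 DP and 1 of 3 Pdgfra+ libraries, and over that of Pdgfra in 0, 2 and 3. Of 8 endoderm markers, each Oct4+ library had such a peak at 0 to 4, each DP library at 4 to 7 and each Pdgfra+ library at 5 to 6. Of 8 fibroblast markers, included because the cultures were grown on feeder cells, 0 to 1 had one in an Oct4+ library and 0 in any other, and of 6 trophectoderm markers 1 to 3 per Oct4+ library and 2 in each of the rest. Over all genes the shares of promoters with an H3K27ac peak were 32.2, 26.3 and 19.0%.

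The covered share, the percentage of the bases of a gene's window that lay under listed peaks of a library, was compared over the 3 populations by an exact permutation test of all 1680 assignments of the 9 libraries of a mark, with Benjamini-Hochberg adjustment over all genes with a peak in the window. The smallest p this design allows is 0.00357. Libraries tied at 0 raise this floor, to 0.0357 with 3 of the 9 libraries above 0 and to 0.25 with 2. No gene passed the adjusted threshold of 0.05 for any mark, and the smallest adjusted p was 0.308, for H3K9me3. With this floor, many genes would have to share the smallest p before any could pass, so this says little about a single gene. By the exact test 10% of genes (2001 of 20013) had an unadjusted p below 0.05 for H3K27ac, 5.68% (881 of 15517) for H3K4me1, 7.5% (929 of 12391) for H3K27me3 and 13.0% (2253 of 17365) for H3K9me3. Limma, run as an alternative, called 0.75% (150), 0.00644% (1), 0.0% (0) and 5.48% (952) of these genes after adjustment. The values that follow are therefore levels with their spread.

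**Figure D1:**
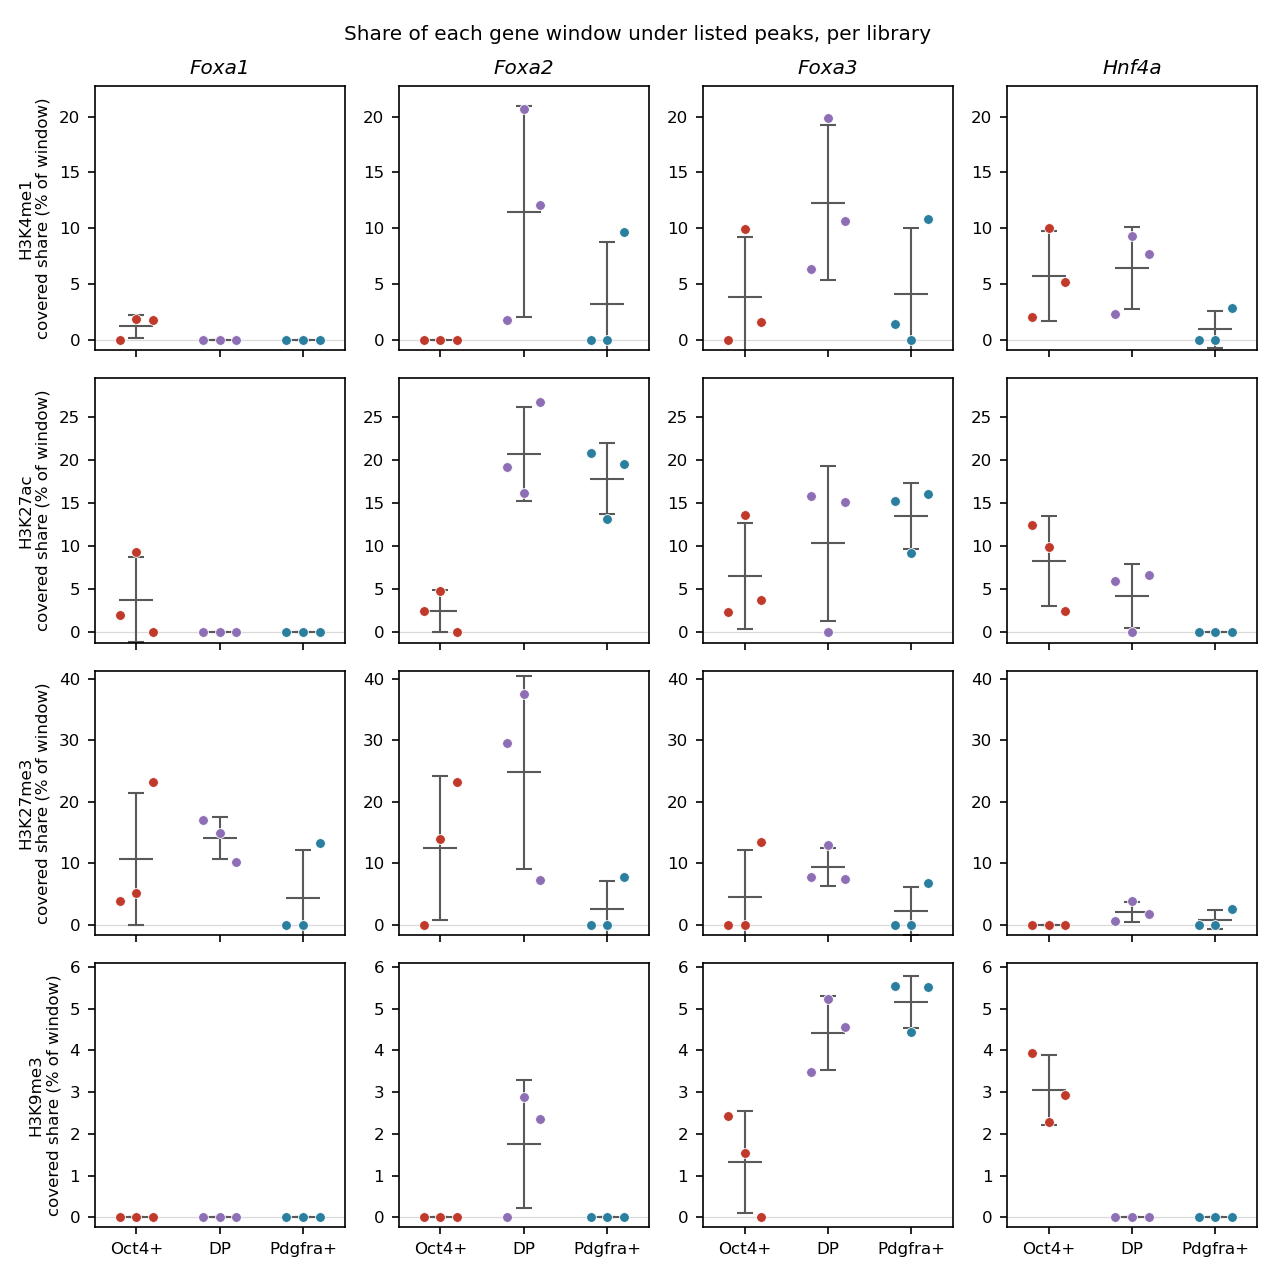
Covered share of the windows of Foxa1, Foxa2, Foxa3 and Hnf4a (columns, y axis in % of the window) for each mark (rows, with a common y axis within a row) in the 3 populations. Points are libraries, replicates 1 to 3 from left to right, and bars are the mean ± SD over 3 libraries. For Foxa2 H3K27ac the 6 DP and Pdgfra+ points lie between 13.2 and 26.8% and the Oct4+ points at 4.86% or less, while Foxa1 has no H3K27ac point above 0 outside Oct4+.

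Foxa2 was the member with the most H3K27ac, in DP and Pdgfra+ cells. Peaks took up 2.5, 4.86 and 0% of the window in Oct4+ replicates 1 to 3. They took up 19.2, 16.2 and 26.8% in the DP replicates and 20.9, 13.2 and 19.6% in the Pdgfra+ replicates. All 6 DP and Pdgfra+ libraries lay above all 3 Oct4+ libraries, a separation that 0.145% of the 20013 genes with a peak showed. The means were 2.45 ± 2.43% (SD, n = 3), 20.7 ± 5.50% and 17.9 ± 4.14%, and the exact permutation p was 0.0214, adjusted p = 0.388 (0.0698 by limma). DP and Pdgfra+ overlapped.

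Oct4+ was also lowest on scales that take the length of the lists into account. Relative to the covered share of the whole genome, the Foxa2 window was covered 0.424 ± 0.372 times as densely in Oct4+ (SD, n = 3), 20.8 ± 14.7 times in DP and 20.1 ± 2.81 times in Pdgfra+. In percentiles among all genes of the same library, where genes tied at 0 share a middle rank, Foxa2 ranked at 29.6, 28.3 and 24.6 in Oct4+, at 95.9, 99.7 and 97.9 in DP and at 98.9, 98.1 and 98.5 in Pdgfra+. With the same number of peaks taken from every list, Oct4+ was at 0 in all 3 libraries, DP at 14.8 ± 1.66% and Pdgfra+ at 14.9 ± 5.34%, with an exact permutation p of 0.0321, adjusted p = 0.270. When peaks were kept above 1 total signal used for every list, the gap between DP and Oct4+ was 11.7 in place of 18.3 percentage points, with an exact permutation p of 0.357.

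All 6 libraries had peaks in the same 4 regions, and DP replicate 3 in 1 more at 15.3 to 20.1 kb. The region over the gene, at chr2:148043011-148047970, ran from -1.002 to 3.96 kb and took in the promoter. The other 3 lay downstream of the gene, from 4.41 to 10.6 kb, from 29.6 to 37.3 kb and, at chr2:148000497-148009650, from 37.3 to 46.5 kb. These 3 lie in or at the promoter of 9030622O22Rik, a long non-coding RNA gene on the same strand that begins beyond the end of Foxa2.

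The promoter, taken from 1 kb before to 100 bp after the start, carried an H3K27ac peak in 0 of 3 Oct4+, 3 of 3 DP and 3 of 3 Pdgfra+ libraries, as 0.319% of the 11581 promoters with a peak did. The exact permutation p was 0.0357, adjusted p = 1. This p was the smallest that any promoter reached for H3K27ac, so the adjusted value cannot single out a promoter. Of these promoters, 1.95% had an unadjusted p below 0.05. Oct4+ replicate 2 had a peak at 1.09 to 3.84 kb inside the gene, of a total signal at percentile 4.02 of its list. With a promoter of 2.5 kb either side, or with every annotated start of Foxa2, this peak counted and the gap between DP and Oct4+ was 66.7 in place of 100% of libraries.

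The region at 37.3 to 46.5 kb, whose sequence is shown above, held the H3K27ac peaks of Foxa2 with the most constant position. The maximum lay between 41.6 and 41.7 kb in all 6 DP and Pdgfra+ libraries, a spread of 0.129 kb. Total signal stood at percentile 94.97, 78.3 and 86.7 of the list in DP replicates 1 to 3 and at 77.1, 69.1 and 77.1 in Pdgfra+. Oct4+ replicate 2 alone among Oct4+ libraries had a peak there, from 41.4 to 43.7 kb at percentile 43.4, with its maximum at 42.9 kb. The regions at 4.41 and 29.6 kb had a peak in 6 of 6 DP and Pdgfra+ and 0 of 3 Oct4+ libraries, a pattern of 0.109% of the 78959 merged H3K27ac regions of the genome. No other of the 25 merged H3K27ac regions in the 4 windows had it.

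H3K4me1 at Foxa2 was listed in every DP library and in 1 of 3 Pdgfra+ libraries. Its covered share was 0% in all 3 Oct4+ libraries, 1.78, 20.7 and 12.1% in DP replicates 1 to 3, and 0, 0 and 9.64% in Pdgfra+. DP lay above Oct4+ in all libraries, as 6.34% of genes did, and overlapped Pdgfra+ (exact permutation p = 0.0714, adjusted p = 0.737). With the same number of peaks from every list no DP peak was left, so that the gap between DP and Oct4+ went from 11.5 to 0 percentage points, and Pdgfra+ was at 1.91 ± 3.31%. The lists of Pdgfra+ replicates 1 and 2 were the shortest for this mark, with 1723 and 1074 peaks against 4127 to 16057 in the others.

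The region from 38.5 to 46.4 kb had H3K4me1 in 3 of 3 DP, 1 of 3 Pdgfra+ and 0 of 3 Oct4+ libraries, and 5.25% of 26496 merged H3K4me1 regions had a peak in all DP and no Oct4+ library. In DP, 3 distal H3K4me1 regions of Foxa2 had a peak in at least 2 of 3 libraries, and all 3 overlapped H3K27ac of DP. They shared 16.3 of their 16.8 kb with it. Distal means outside the promoter of the member itself. Outside promoters, these marks together are the usual definition of an active enhancer. Of the 3, the region that begins at 5.71 kb lies in a merged region that takes in the promoter of 9030622O22Rik. No H3K4me1 peak touched the Foxa2 promoter in any library.

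**Figure D2:**
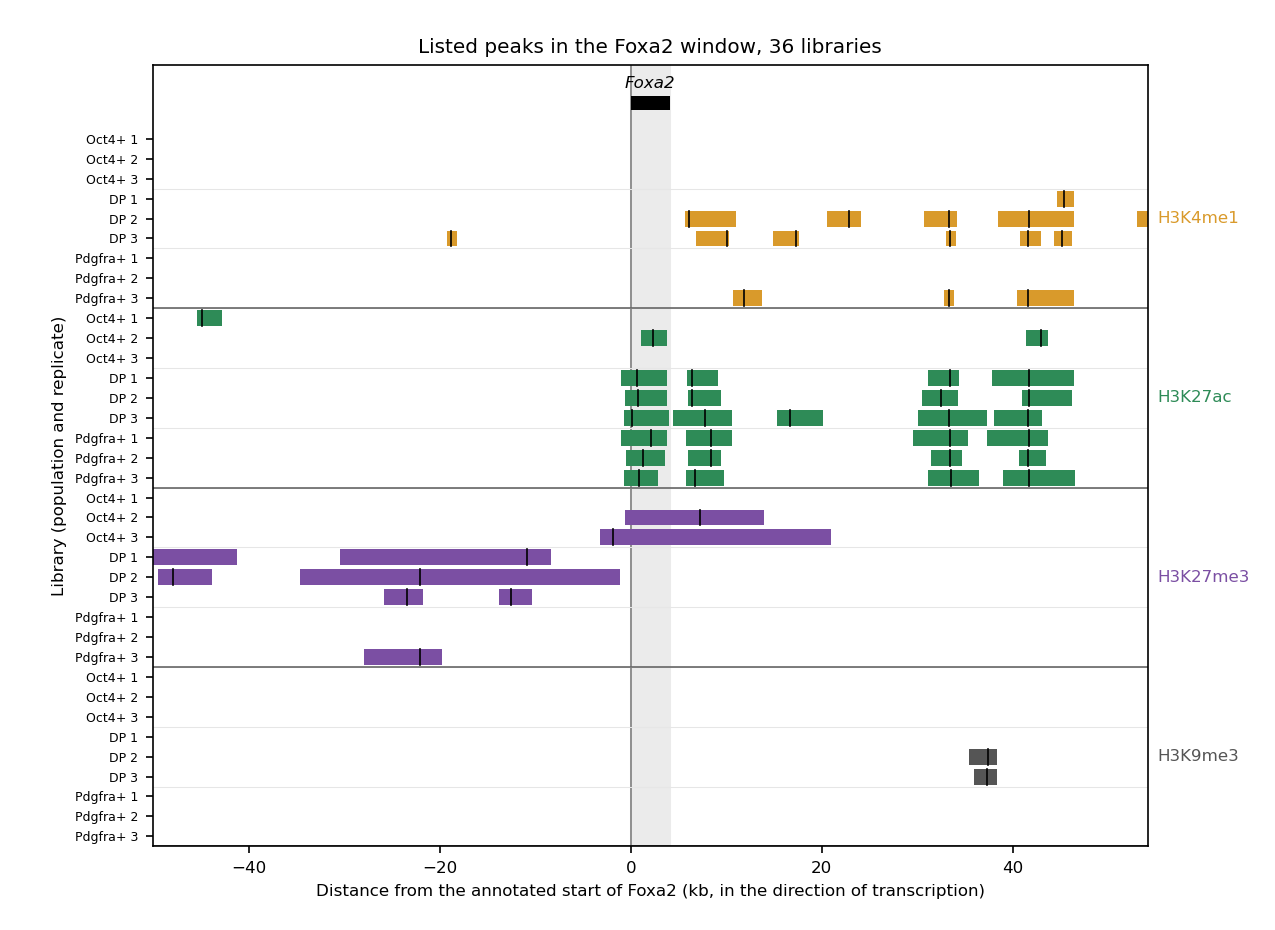
Listed peaks in the Foxa2 window, by distance from the gene start in kb (x axis) and by library (y axis, 9 libraries for each mark). Bars are peaks, black ticks their maxima, the grey band the gene. The green H3K27ac bars of DP and Pdgfra+ fall in the same 4 places, with 1 more bar in DP replicate 3, and the H3K27me3 bars lie over the gene in Oct4+ replicates 2 and 3 and before it in DP.

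H3K27me3 lay over the Foxa2 gene in 2 of 3 Oct4+ libraries and before its start in all DP libraries. It covered 0, 14.0 and 23.3% of the window in Oct4+ replicates 1 to 3, 29.6, 37.6 and 7.28% in DP, and 0, 0 and 7.79% in Pdgfra+. All populations overlapped (exact permutation p = 0.143, adjusted p = 0.626).

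In Oct4+ replicate 2 a single peak ran from -0.632 to 14.0 kb, at percentile 95.5 of its list, and in replicate 3 from -3.23 to 20.97 kb, at percentile 96.0. Both reached the promoter and covered the gene. In DP every peak ended before the start: the nearest reached -8.39 kb in replicate 1, -1.12 kb in replicate 2 and -10.3 kb in replicate 3. The peak of Pdgfra+ replicate 3 lay from -27.9 to -19.8 kb. A promoter peak was thus present in 2 of 3 Oct4+ and in 0 of 6 other libraries (exact permutation p = 0.25, adjusted p = 1), and 3.89% of 4911 promoters had an unadjusted p below 0.05.

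The H3K27me3 of Oct4+ replicates 2 and 3 overlapped the acetylated regions of DP and Pdgfra+ at and next to the gene. It shared from 7.48 to 15.7 kb with the H3K27ac peaks of each DP or Pdgfra+ library, which covered from 13.7 to 27.9 kb of the window. The H3K27me3 of DP and Pdgfra+ shared 0 kb with H3K27ac of either population. These are lists of separate libraries, so they do not show both marks on 1 molecule.

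H3K9me3 at Foxa2 was limited to a peak from 35.4 to 38.4 kb in DP replicate 2 and from 35.9 to 38.4 kb in replicate 3, at percentiles 76.4 and 72.2. Their maxima lay 0.017 kb apart. It fell where the acetylated regions at 29.6 and 37.3 kb meet and shared 2.48 kb with H3K27ac of DP. The covered share was 2.88 and 2.36% in these libraries and 0% in the other 7 (exact permutation p = 0.25, adjusted p = 0.641). This p is the smallest possible with 7 libraries at 0.

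Foxa3 carried H3K27ac in all 3 populations. The share of its window under peaks was 2.35, 13.6 and 3.74% in Oct4+ replicates 1 to 3, 15.8, 0 and 15.2% in the DP replicates and 15.3, 9.17 and 16.1% in Pdgfra+. The populations overlapped, through Oct4+ replicate 2 and DP replicate 2 (exact permutation p = 0.521, adjusted p = 0.750). These libraries had the longest and the shortest H3K27ac list, with 65131 and 3079 peaks. With the same number of peaks from every list, Oct4+ was at 0% in all libraries, DP at 10.3 ± 8.96% (SD, n = 3) and Pdgfra+ at 13.5 ± 3.80% (exact permutation p = 0.0857, adjusted p = 0.435).

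The promoter of Foxa3 had an H3K27ac peak in 3 of 3 Oct4+, 2 of 3 DP and 3 of 3 Pdgfra+ libraries, within a region at chr7:19017862-19026260 from -2.72 to 5.68 kb. This region also held the promoter of Sympk, a polyadenylation factor gene that starts 0.839 kb before Foxa3 on the opposite strand, so peaks there cannot be assigned to 1 of the genes. In Oct4+ the peaks were 1.54 to 2.59 kb wide with maxima between -1.11 and -0.955 kb, on the Sympk side. In DP replicates 1 and 3 and Pdgfra+ replicates 1 and 3 they reached from -2.37 kb or before to 4.60 kb or further into the gene, and in Pdgfra+ replicate 2 to 1.36 kb.

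Total signal of the promoter peak stood at percentiles 42.7, 70.0 and 10.2 in Oct4+ replicates 1 to 3. It stood at 93.9 and 93.2 in DP replicates 1 and 3, and at 87.0, 59.5 and 89.9 in Pdgfra+. With equal numbers of peaks the order of Oct4+ and DP reversed, from a gap of 33.3 to -66.7% of libraries, because no Oct4+ promoter peak was among those kept.

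Downstream of Foxa3, a region from 10.6 to 23.5 kb at chr7:19000071-19012970 had H3K27ac in 1 of 3 Oct4+, 2 of 3 DP and 3 of 3 Pdgfra+ libraries. It includes the promoter of Irf2bp1, a co-repressor gene that begins 19.5 kb from Foxa3. In DP and Pdgfra+ each of the 5 libraries had 1 wide peak there, of 6.16 to 10.1 kb, at percentiles from 89.6 to 97.3 of its list. Oct4+ replicate 2 had 3 separate peaks of 1.79 to 2.18 kb, at percentiles 7.59, 23.0 and 70.2.

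H3K4me1 in the Foxa3 window covered 0, 9.94 and 1.59% in Oct4+, 6.37, 19.9 and 10.6% in DP and 1.39, 0 and 10.8% in Pdgfra+ replicates 1 to 3. The populations overlapped, with an exact permutation p of 0.25, adjusted p = 0.737. All 3 DP libraries had a peak inside the gene, within a region from -4.08 to 5.80 kb that had peaks in 7 libraries. All 3 also had peaks beyond the gene, from 14.4 to 19.0 kb, on Irf2bp1, and from 19.2 to 23.4 kb, over its promoter, as did 1 Oct4+ and 1 Pdgfra+ library. Of 3 distal H3K4me1 regions with a peak in at least 2 DP libraries, 2 overlapped H3K27ac of DP, 1 of them over the promoter of Irf2bp1. The third, over the promoter of Mypop at 29.2 to 33.4 kb, overlapped neither H3K27ac nor H3K27me3.

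**Figure D3:**
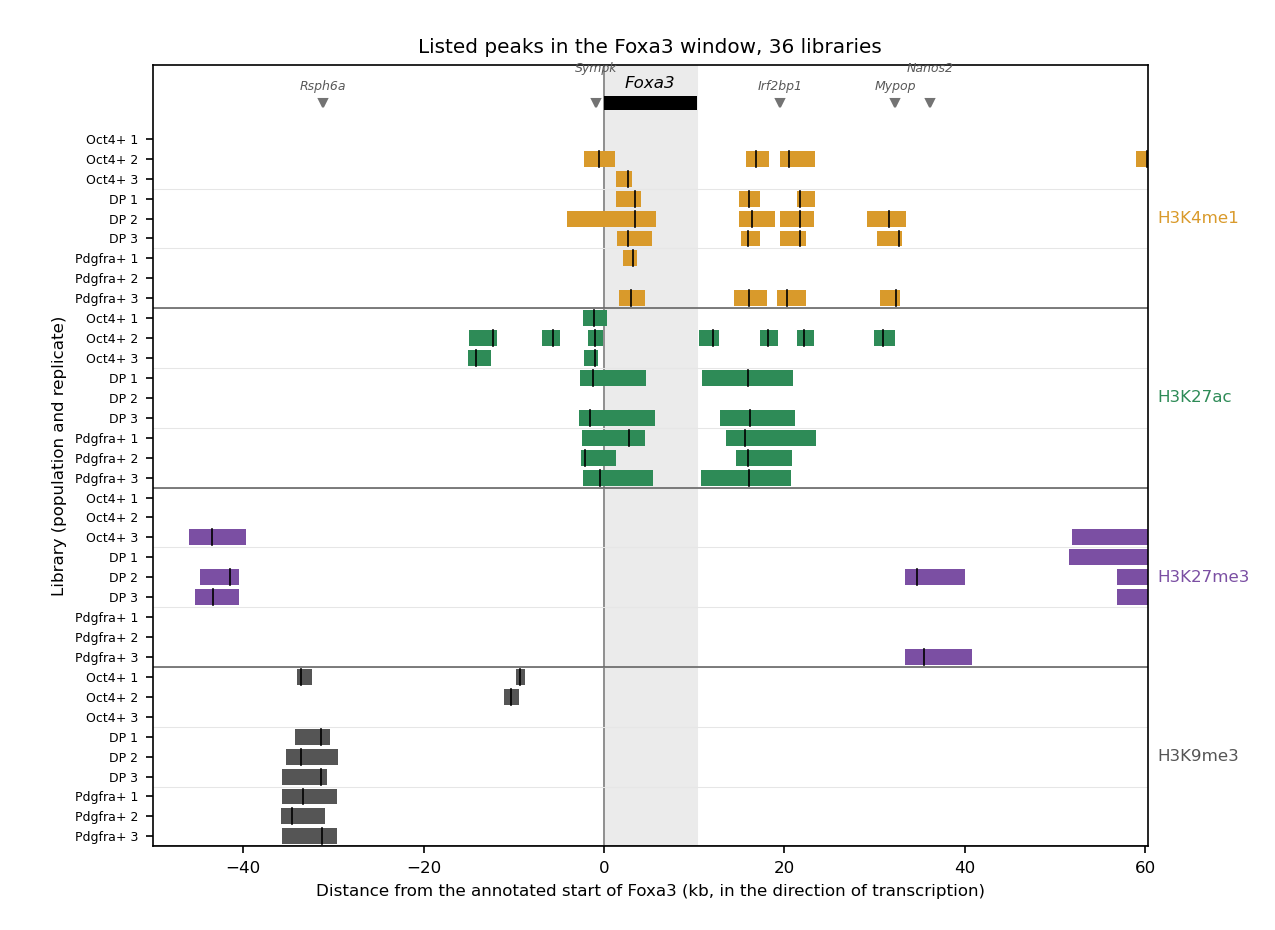
Listed peaks in the Foxa3 window, by distance from the gene start in kb (x axis) and by library (y axis). Bars are peaks, black ticks their maxima, the grey band the gene and triangles the starts of other genes. H3K27ac bars at the start and beyond the gene are wide in DP and Pdgfra+, and H3K9me3 bars near the start of Rsph6a appear in all 6 DP and Pdgfra+ libraries and, narrower, in Oct4+ replicate 1.

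No H3K27me3 peak was listed over the Foxa3 gene or its promoter in any of the 9 libraries. In the window, the covered share was 0, 0 and 13.4% in Oct4+, 7.86, 13.0 and 7.51% in DP and 0, 0 and 6.79% in Pdgfra+ libraries (exact permutation p = 0.25, adjusted p = 0.626). DP lay above Pdgfra+ in all libraries, as 14.9% of genes did. The peaks lay away from the gene, over Nova2 in 3 of 3 DP libraries and Oct4+ replicate 3, over Rsph6a in DP replicates 2 and 3 and Oct4+ replicate 3, and over Nanos2 in DP replicate 2 and Pdgfra+ replicate 3.

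H3K9me3 in the Foxa3 window was higher in DP and Pdgfra+ libraries than in Oct4+, but lay over a neighbouring gene. Covered shares were 2.43, 1.54 and 0% in Oct4+, 3.47, 5.23 and 4.55% in DP and 5.53, 4.45 and 5.51% in Pdgfra+ replicates 1 to 3. Every DP and Pdgfra+ library lay above every Oct4+ library. All 3 DP above all 3 Oct4+ libraries was found for 9.83% of genes and all 3 Pdgfra+ above all 3 Oct4+ for 6.59% of genes. The share of genes with both was not counted for this mark. The means were 1.32 ± 1.23% (SD, n = 3), 4.42 ± 0.885% and 5.17 ± 0.619%, with an exact permutation p of 0.0107, adjusted p = 0.308.

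The peaks of DP and Pdgfra+ lay from -35.8 to -29.5 kb, over the promoter of Rsph6a, a radial spoke gene, and exons of Sympk. They stood at percentiles 96.5, 99.3 and 97.6 of the DP lists and 99.03, 96.8 and 98.9 of the Pdgfra+ lists. Oct4+ replicate 1 had a peak of 1.65 kb there at percentile 53.4. Nearer to Foxa3, from -11.1 to -8.72 kb, H3K9me3 was listed in Oct4+ replicates 1 and 2 alone. A window of 20 kb on either side of Foxa3 leaves out the region at Rsph6a and keeps the nearer one, and with it the gap between Pdgfra+ and Oct4+ went from 3.84 to -1.81 percentage points.

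Foxa1 carried H3K27me3 and little else. This mark covered 3.93, 5.20 and 23.2% of the window in Oct4+, 17.0, 14.95 and 10.3% in DP and 0, 0 and 13.3% in Pdgfra+ replicates 1 to 3. In percentiles among all genes of the library this was 96.2, 90.9 and 95.1 in Oct4+, 89.0, 82.8 and 85.9 in DP, and 82.5 in Pdgfra+ replicate 3. The populations overlapped (exact permutation p = 0.336, adjusted p = 0.707). At equal numbers of peaks from every list, Oct4+ was at 5.71 ± 8.30% (SD, n = 3) and DP and Pdgfra+ at 0%.

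The H3K27me3 peaks lay in the same places in all 7 libraries that had any. Upstream and over the start, a region at chr12:57540856-57557044 from -10.1 to 6.06 kb had peaks in 3 of 3 Oct4+, 3 of 3 DP and 1 of 3 Pdgfra+ libraries. Their maxima lay between -2.83 and -2.63 kb in Oct4+. Downstream, a region from 8.72 to 17.7 kb had peaks in the same 7 libraries. A further region from -31.1 to -25.7 kb, over the promoter of Ttc6, had peaks in Oct4+ replicate 3 and DP replicate 2. Peaks that reached the promoter itself were fewer, in Oct4+ replicate 3, DP replicates 2 and 3 and Pdgfra+ replicate 3. Pdgfra+ replicates 1 and 2, without any, had 1143 and 2841 H3K27me3 peaks in all against 6151 in replicate 3, and whether the length of the list has a part in this was not tested.

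H3K27ac in the Foxa1 window was listed in Oct4+ replicate 1, covering 2.06%, and replicate 2, covering 9.36%, and in no other library. Its 5 peaks were weak, at percentiles from 17.1 to 39.8, in 5 different places. The peak of replicate 1, from -0.308 to 1.88 kb, was the only one over the promoter. H3K4me1 was listed in Oct4+ replicates 2 and 3, at 10.4 to 12.4 kb and percentiles 20.1 and 13.0, inside the downstream H3K27me3 region, with which it shared all of its 1.95 kb. H3K27ac of Oct4+ replicate 2 was listed at the same place. A distal H3K4me1 region with H3K27me3 and without H3K27ac in 2 or more libraries is usually termed bivalent or poised, and this was the only such region of the Foxa genes. H3K9me3 was listed in the Foxa1 window in none of the 9 libraries.

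H3K27ac lay before the Hnf4a gene in 3 of 3 and inside it in 2 of 3 Oct4+ libraries. It lay at the start of the gene in 2 of 3 DP libraries. H3K27ac covered 12.5, 9.94 and 2.47% of the window in Oct4+ replicates 1 to 3, 6.03, 0 and 6.72% in DP, and 0% in all 3 Pdgfra+ libraries. Oct4+ lay above Pdgfra+ in all libraries, as 19.9% of genes did, and overlapped DP. The means were 8.30 ± 5.21% (SD, n = 3), 4.25 ± 3.70% and 0%, with an exact permutation p of 0.10, adjusted p = 0.484. Taken at the same number of peaks from every list, Oct4+ was at 3.13 ± 1.39% and DP and Pdgfra+ at 0% (exact permutation p = 0.0357, adjusted p = 0.270).

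The start of Hnf4a was acetylated in DP replicates 1 and 3, from -2.09 to 1.89 kb and from -1.11 to 1.96 kb, at percentiles 29.7 and 43.0. An H3K27ac peak lay there in 0 of 3 Oct4+ and 0 of 3 Pdgfra+ libraries (exact permutation p = 0.25, adjusted p = 1). DP replicate 2, without it, had the shortest H3K27ac list. RefSeq places a further start of Hnf4a 40.3 kb inside the gene, with a promoter window at chr2:163546905-163547204, which is the promoter used in adult liver. Over it lay 0 listed peaks of any mark.

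The strongest H3K27ac of the window lay far before the gene. A region at chr2:163461674-163473226, from -45.1 to -33.6 kb, had peaks in 3 of 3 Oct4+ and 0 of 6 other libraries, a pattern of 3.07% of merged H3K27ac regions and of no other region in the 4 windows. Its peaks stood at percentiles from 91.6 to 98.9 of their lists. This region is named because of its values, as are its sequence above and the marks that lie on it. It runs into the promoter of Fitm2, a gene for a lipid droplet protein, and is nearer to that gene than to Hnf4a.

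Other marks lay on this interval or next to it. H3K4me1 from -45.6 to -39.5 kb was present in 3 of 3 Oct4+, 3 of 3 DP and 0 of 3 Pdgfra+ libraries, a pattern of 0.46% of merged H3K4me1 regions. H3K9me3 from -47.4 to -40.5 kb was present in 3 of 3 Oct4+ and 0 of 6 other libraries, as for 4.43% of merged H3K9me3 regions. In Oct4+, consensus H3K9me3 shared 4.63 kb with H3K27ac and 6.17 kb with H3K4me1. In DP, H3K27me3 peaks that began before the window reached to -48.9 kb in replicate 1 and -43.6 kb in replicate 2, and a peak in replicate 3 lay from -49.6 to -46.5 kb. In Pdgfra+ replicate 3 a peak that began before the window reached to -45.7 kb. This region had H3K27me3 in 3 of 3 DP and 0 of 3 Oct4+ libraries, as 6.43% of 10684 merged H3K27me3 regions did. In DP, H3K27me3 overlapped 1.73 kb of consensus H3K4me1, through the peak of replicate 2 alone. The H3K27me3 peaks of replicates 1 and 3 ended before this H3K4me1 began, at -45.3 kb.

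The H3K9me3 values of Hnf4a were 3.93, 2.29 and 2.93% in Oct4+ and 0% in all 6 other libraries, a pattern of 2.96% of genes. The exact permutation p was 0.0357, the smallest possible with 6 libraries at 0, adjusted p = 0.308. Limma gave an adjusted p of 0.0261. With the same number of peaks from every list the mean of Oct4+ was 0.977 in place of 3.05%, with a peak left in 1 of 3 libraries. No other value of the 4 genes passed an adjusted threshold by either test.

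**Figure D4:**
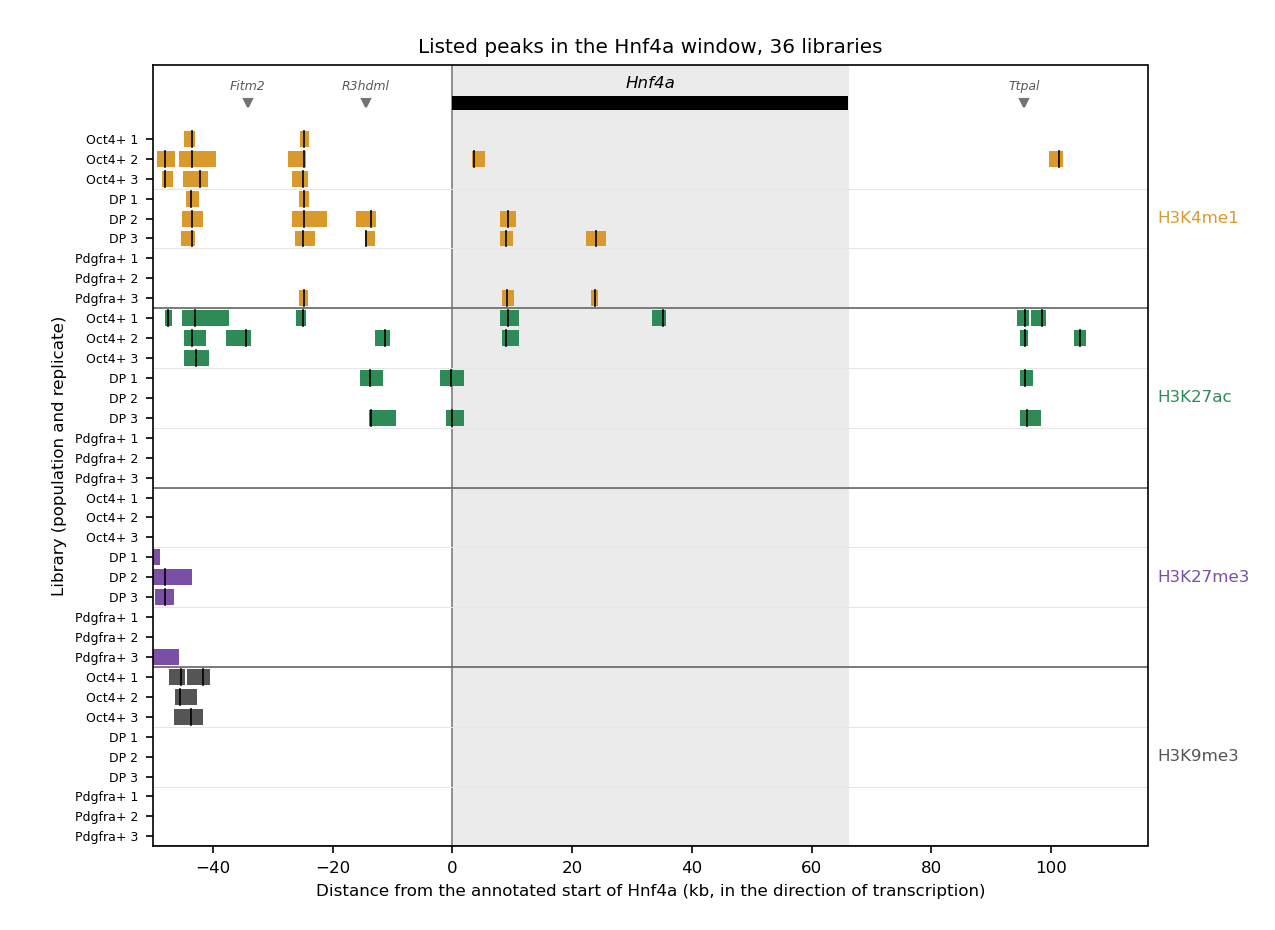
Listed peaks in the Hnf4a window, by distance from the gene start in kb (x axis) and by library (y axis). Bars are peaks, black ticks their maxima, the grey band the gene and triangles the starts of other genes. Near -43 kb, H3K4me1, H3K27ac and H3K9me3 bars are found in all 3 Oct4+ libraries, H3K4me1 bars in all 3 DP libraries, and no bar of these marks in Pdgfra+.

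In Oct4+ H3K4me1 covered 2.02, 10.03 and 5.19% of the Hnf4a window, with 2.30, 9.35 and 7.65% in DP and 0, 0 and 2.84% in Pdgfra+. The exact permutation p was 0.175, adjusted p = 0.737. When every list gave the same number of peaks, Oct4+ was at 2.05 ± 1.87% (SD, n = 3) and DP and Pdgfra+ at 0%. The region with H3K4me1 in the most libraries lay from -27.4 to -20.9 kb, between Fitm2 and R3hdml, with peaks in 3 of 3 Oct4+, 3 of 3 DP and 1 of 3 Pdgfra+ libraries. Its maxima lay between -25.0 and -24.7 kb in all 7, and its sequence holds the HNF4 match shown above. H3K27ac was listed there in Oct4+ replicate 1 alone, at percentile 21.4.

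Inside the gene, H3K4me1 from 7.90 to 10.7 kb was present in DP replicates 2 and 3 and Pdgfra+ replicate 3, where H3K27ac was present in Oct4+ replicates 1 and 2. Of 4 distal H3K4me1 regions with a peak in at least 2 DP libraries, 1 overlapped H3K27ac of DP. Another 1 overlapped H3K27me3, that of DP replicate 2 alone. The other 2 overlapped neither, the state termed primed. The region with H3K27ac, from -16.1 to -12.7 kb, lay over the promoter of R3hdml. Of 3 distal H3K4me1 regions with a peak in at least 2 Oct4+ libraries, 1 overlapped H3K27ac and 2 neither. The region with H3K27ac, from -45.6 kb, and 1 of the others, from -49.3 kb, also overlapped H3K9me3 of Oct4+.

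H3K27me3 covered 0% of the Hnf4a window in Oct4+, 0.669, 3.87 and 1.83% in DP and 0, 0 and 2.58% in Pdgfra+ replicates 1 to 3, all of it in the region before the gene. DP lay above Oct4+ in all libraries, as 23.6% of genes did (exact permutation p = 0.179, adjusted p = 0.626). The region over Ttpal at 94.3 to 99.2 kb, at the far end of the window, had H3K27ac in Oct4+ replicates 1 and 2 and DP replicates 1 and 3.

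Merged regions present in every library of 1 population and absent from every library of another were counted over the 4 windows. They were 3 of 25 for H3K27ac, beside 4.49% of regions in the genome, 2 of 21 for H3K4me1, beside 12.5%, 2 of 9 for H3K27me3, beside 11%, and 1 of 4 for H3K9me3, beside 11.2%. The 3 of H3K27ac were the Foxa2 pair and the region at -45.1 kb of Hnf4a. The others lay at Foxa2 and Hnf4a for H3K4me1, at Foxa3 and Hnf4a for H3K27me3 and at Hnf4a for H3K9me3, and none at Foxa1.

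The patterns of the 4 genes differed. Over the 36 libraries, the percentile of the covered share gave Pearson r from -0.178 to 0.393 between members, the highest for Foxa2 and Foxa3. Among the genes whose pattern was most like that of Foxa2 were Ets1 (r = 0.891), Coq2 (0.882), Ccl27a (0.861) and Galt (0.826). For Foxa1 they were Tbc1d21 (0.980), Slc22a21, Fezf2, Kcna3 and Cav1 (0.927 for the last), for Foxa3 Pnpla6 (0.677), Mat2a, Rab11fip1, Pkd1l2 and Fhad1 (0.635), and for Hnf4a Calhm3 (0.790), Zbed4, Dennd2a and Calhm1 (0.749). These are descriptions over libraries that share marks and list lengths, and Ccl27a and Galt are both on chromosome 4.

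Other regulators of endoderm and their targets were read in the same way. Of 13 endoderm regulators, among them Gata4, Gata6 and Sox17, 0 passed the adjusted exact permutation test for any mark, as no gene did. Unadjusted p below 0.05 was found for 1 of 13 tested for H3K27ac (Hnf4g) and 2 of 12 for H3K4me1 (Nr5a2 and Gsc). It was found for 3 of 12 for H3K27me3 (Sox17, Sox7 and Nr5a2) and 0 of 12 for H3K9me3. Over all genes the shares were 10, 5.68, 7.5 and 13.0%, in that order of marks. Hnf4g H3K27ac and Gsc H3K4me1 were listed in Oct4+ alone, and mean H3K4me1 of Nr5a2 was highest in Oct4+. H3K27me3 was listed in Oct4+ alone for Sox17 and Sox7 and was highest in DP for Nr5a2. Limma called none of the regulators after adjustment. These names were chosen after their values were seen. The median difference of covered share between DP and Oct4+ was -0.960 percentage points for H3K27ac, beside -3.18 over all genes, and 1.37 for H3K4me1, beside 0.432.

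Of 18 genes of visceral endoderm and liver, such as apolipoproteins and transport receptors, 0 passed the adjusted exact permutation test, as no gene did. Unadjusted p below 0.05 was found for 0 of 18 tested for H3K27ac, 1 of 15 for H3K4me1 (Dab2) and 2 of 10 for H3K27me3 (Apoa2 and Amn). It was found for 2 of 9 for H3K9me3 (Ttr and Apob), and limma called Ttr for H3K9me3. These names too were chosen after their values were seen. Mean H3K4me1 of Dab2 and H3K27me3 of Apoa2 were highest in DP, and H3K27me3 of Amn was listed in Oct4+ alone. H3K9me3 of Ttr was listed in DP and Pdgfra+ and not in Oct4+, and that of Apob was highest in Oct4+. The median difference between DP and Oct4+ was -2.05 percentage points for H3K27ac, beside -3.18 over all genes, and 4.40 for H3K4me1, beside 0.432. An H3K27ac promoter peak was listed in 0 of 9 libraries for Alb, Afp, Apoa1 and Ttr, which encode proteins secreted by the liver. The same held for Trf, Fgb, Dab2 and Vil1. All others of the list had one in at least 1 library. Of all 21911 protein-coding genes, 11581 had such a peak in at least 1 library. For Mttp, a lipid transfer protein gene, it was listed in 3 of 3 Oct4+, 3 of 3 DP and 2 of 3 Pdgfra+ libraries, for Apoe in 2, 2 and 1, and for Ihh, a hedgehog ligand gene, in 1, 3 and 3.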

How the data were processed

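CUT&Tag of 36 libraries was analysed from the peak lists that the authors deposited, which the paper called against an IgG control. Per the submitters' processing notes, bcl2fastq 2.19.1, Bowtie2, SAMtools 1.12, deepTools, SEACR and bedtools 2.26.0 were used with mm10, and 1 list was deposited for each library. Each line the authors deposited gives a region with its total and maximum signal, that is, coverage summed over the region and at its highest point. Reads are not listed, so depth is unknown and no interval was computed. Total signal was used as a percentile within its list. No 2 lists were identical.

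Genes came from GENCODE vM21. Covered shares used the gene body with 50 kb on either side, promoters 1 kb before to 100 bp after the start. For counts of regions, overlapping peaks of a mark were merged over its 9 libraries. For states (active, bivalent, primed) and consensus regions they were merged over the 3 libraries of a population. A region was kept there where at least 2 of 3 libraries had a peak. Such a region takes in bases listed in 1 library alone, and so do the kb shared between marks of a population. For states, a region was distal if it lay outside the promoter of the member, so promoters of neighbouring genes were included. The exact permutation test compared the spread of the 3 population means over all 1680 assignments and has no direction, with Benjamini-Hochberg adjustment over all genes of a mark and a threshold of 0.05. Limma 3.58.1 (R 4.3.3) was an alternative, as were a replicate block, windows of 20 and 100 kb, the same number of peaks per list, the 50% of peaks with most signal, a common signal threshold, other promoters, and each replicate left out. Both tests were run on simulated data before use. The rule for names took the members, the 5 genes most alike to each, listed genes past the adjusted threshold (none passed), and for each member and mark the promoter region and the distal region present in most libraries (ties by mean percentile of total signal), with genes whose promoter it covers. Other regions, neighbours and listed genes were named after their values were seen. The members and gene lists were chosen with earlier results of these data known. Some genes that these lists and the rule would name are not reported here, and the counts leave out the listed ones. The labels number the replicates and the methods call them biological, but all come from 1 cell line, so p-values measure the spread between these samples. Python 3.11.15, NumPy 2.4.6, pandas 2.3.3 and Matplotlib 3.10.9 were used.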

Additional observations from a re-analysis of the deposited data

How the results depend on the processing

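With 20 kb on either side in place of 50 kb, the gap of Foxa3 H3K9me3 between Pdgfra+ and Oct4+ reversed to -1.81 percentage points, and no peak was left to test for H3K9me3 of Foxa2 and Hnf4a and H3K27me3 of Foxa3 and Hnf4a. With the same number of peaks from every list, the gap of Foxa3 H3K27ac promoters between Oct4+ and DP reversed from 33.3 to -66.7% of libraries and that of Foxa1 H3K27me3 promoters between DP and Oct4+ to -33.3%. On this scale the gaps of Foxa2 H3K4me1 between DP and Oct4+ (11.5 points), Hnf4a H3K4me1 between DP and Pdgfra+ (5.49) and Foxa1 H3K27me3 between DP and Pdgfra+ (9.63) went to 0 and no peak was left for Foxa1 H3K4me1, Foxa1 H3K27ac and Foxa3 H3K27me3, nor at the promoters of Foxa3 for H3K4me1 and of Hnf4a for H3K27ac. The stronger 50% of each list and the common signal threshold also left none for Foxa1 H3K4me1 and H3K27ac, and the former none at the Hnf4a promoter for H3K27ac. Requiring a peak in 3 libraries removed Foxa1 H3K4me1 and H3K27ac and Foxa2 H3K9me3. Keeping only the stronger 50% of each list put the promoter gap of Foxa3 H3K27ac at -33.3%. The gaps of 33.3% of libraries in promoters with Foxa3 H3K4me1 (Oct4+ minus Pdgfra+) and Foxa1 H3K27me3 (DP minus Oct4+) went to 0 with promoters of 2.5 kb either side and with the stronger 50% of each list. Limma gave the Hnf4a H3K9me3 gap of 3.05 points an adjusted p of 0.0261. Regions present in all libraries of a population and none of another numbered 2 for H3K4me1, 3 for H3K27ac, 2 for H3K27me3 and 1 for H3K9me3. In the same order they numbered 10, 8, 4 and 3 with 2 of 3 libraries required, 0, 5, 0 and 1 with the same number of peaks, and 0, 2, 1 and 2 with 50% of the region covered, while the stronger 50% of each list gave 0 for H3K27me3. The cause of these shifts was not tested. Of 372 alternatives over 34 results, 347 kept their direction and side of the threshold or, for counts, stayed close, including 195 of 197 that left out 1 replicate. The exceptions were the promoter gaps of Foxa3 H3K27ac between Oct4+ and DP, which was 0 without DP replicate 2 (0 to 50% of libraries over all replicates left out), and of Foxa3 H3K4me1, which was 0 without Oct4+ replicate 2 (0 to 50%). The Foxa2 H3K27ac gap between DP and Oct4+ ran from 15.2 to 20.6 points with 1 replicate left out. Since no value passed the adjusted exact test, their staying below the call says little. Same-numbered libraries of 2 populations correlated from -0.689 to 0.716 and differently numbered ones from -0.756 to 0.739. These values do not settle whether replicate numbers pair the libraries. The H3K27me3 pairs of Oct4+ and Pdgfra+ correlated at 0.657, 0.356 and 0.616. The pairs of Oct4+ and DP correlated at 0.638, 0.569 and 0.0362 for H3K4me1, but at 0.0892, -0.564 and -0.523 for H3K27ac. With the replicate block Foxa2 H3K27ac had an exact permutation p of 0.0556, adjusted p = 0.653, with no call changed. Unknown depth limits every absent peak, most of all in DP replicate 2 of H3K27ac and Pdgfra+ replicates 1 and 2 of H3K4me1 and H3K27me3, whose lists are short.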
